A study of Mus musculus with 20 samples.

Results

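The footprints described here come from mouse livers that received a scrambled luciferase siRNA, the control of a study of translation initiation factor eIF3m, and were taken at day 13 or at day 9 of treatment. They were chosen by siRNA and assay: 5 of the 20 libraries of the series are ribosome footprint libraries of control livers, 2 from day 13 and 3 from day 9. All animals were FVB/N mice, aged 6 to 8 weeks, that were injected through the tail vein with siRNA in lipid nanoparticles at 0.5 mg per kg, at 1 injection in 5 days. Mice that received the Eif3m siRNA were treated alike and gave 2 footprint libraries at day 13 and 3 at day 9; their sample IDs are not those of the controls, and they serve below as another set. No untreated liver is among the samples used here, so injection and lipid nanoparticles are common to every group, and the day is the time since treatment began at an unstated time of day. Every sample ID of day 13 carries the prefix ES11 and every one of day 9 the prefix ES34, in control and Eif3m livers alike, so this ID series and the day cannot be told apart.

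In ribosome profiling, RNA outside the ribosome is digested away and the short stretches that ribosomes protect are sequenced, so that the footprints of a gene reflect both how much of its mRNA there is and how heavily it is translated. The liver makes most plasma proteins, clears drugs and bile acids, burns and builds fat and keeps blood glucose up. Hepatocytes hold most of its RNA, beside Kupffer cells (resident macrophages), sinusoidal endothelial cells, stellate cells, which store vitamin A and lay down collagen when activated, and blood left in the vessels. Footprint libraries were made with the ART-seq kit on both days, and values are in CPM, a gene's counts relative to the total of its library after scaling by edgeR's TMM method.

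The day 13 control libraries were shallower, with 1974248 and 2124245 counts, against 7036106, 7689829 and 7365546 in the day 9 control libraries. Albumin mRNA took 18.5% of the counts in each of the day 13 libraries, against 13.7%, 13.1% and 15.9% at day 9. Log2 CPM correlated across genes with a Pearson r of 0.968 between the day 13 livers, and of 0.984 to 0.988 between the day 9 livers. Across the days r was 0.949 to 0.959 over the 6 pairs of control libraries. The targeted gene of the study, Eif3m, had 76.6 and 78.8 CPM at day 13 and 78.8, 73.9 and 75.4 CPM at day 9 in control livers, and its log2 change was 0.03 (SE 0.17, adjusted p = 0.93). In the Eif3m siRNA livers the same gene had 5.73 and 2.46 CPM at day 13, against 5.696, 6.101 and 6.77 CPM at day 9.

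Of 12213 genes tested, 1264 (10.3%) changed between day 13 and day 9 in the control livers at an adjusted p below 0.05 (edgeR's quasi-likelihood test with Benjamini-Hochberg adjustment over all genes tested). Of these, 668 (5.47%) rose and 596 (4.88%) fell at day 13, and 308 of the rises and 233 of the falls were past 2-fold. The median log2 change of all genes tested was -0.02. For 5852 genes (47.9%) the day 13 values did not overlap the day 9 values, 2822 of them (23.1%) higher and 3030 (24.8%) lower. Exact permutation of 2 against 3 libraries has 10 arrangements and cannot give a two-sided p below 0.2. The calls come from edgeR's fit over the 10 footprint libraries, Eif3m included; the 5 control libraries fitted alone gave 1488 calls, 1196 of them among the 1264. The call count was 494 without day 13 replicate 1, 322 without day 13 replicate 2, 780 without day 9 replicate 1 and 799 without day 9 replicate 2. Of 159 named genes that were called, 73 were no longer called without day 13 replicate 1, 85 without day 13 replicate 2, and 36, 32 and 17 without day 9 replicates 1, 2 and 3. With the day 9 control libraries thinned to 26.6% to 29.1% of their counts, the mean depth of day 13, a step added after the data were seen, 1030 genes were called. With library totals in place of TMM scaling, 521 genes rose and 818 fell, at a median log2 change of -0.10.

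**Figure D1:**
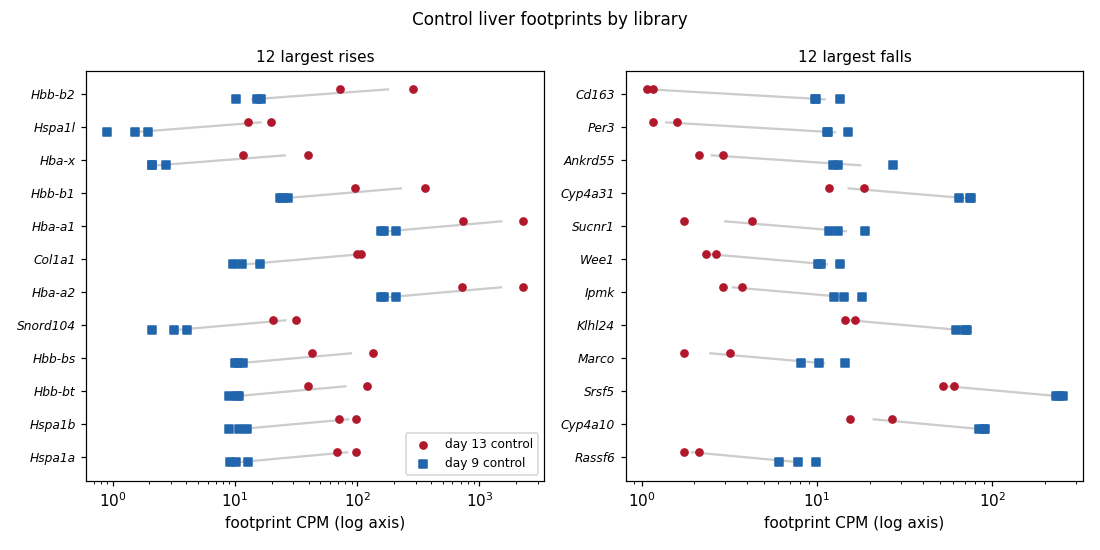
Footprint CPM (log axis) of the genes with the largest called rises and falls in control livers, by the naming rule, with 1 point per liver, day 13 circles above day 9 squares and a grey line joining the means. The days do not overlap for any of the 24 genes, as the naming rule requires. The day 13 points of the globin genes are far apart, while those of Col1a1, Klhl24 and Srsf5 lie close together.

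Collagen genes were among the largest rises at day 13. Of 27 stellate cell and fibrosis markers tested, 16 rose and 0 fell, with a median log2 change of 0.74, against -0.02 over all genes. Col1a1, a chain of type I collagen, had 99.8 and 108 CPM at day 13, against 15.9, 9.65 and 11.4 CPM at day 9. Both day 13 livers lay far above all day 9 livers, with a log2 change of 3.08 (SE 0.20, adjusted p = 1.2e-08). Its partner chain Col1a2 had 115 and 107 CPM at day 13, against 38.8, 29.8 and 32.9 CPM at day 9, a log2 change of 1.72 (SE 0.17, adjusted p = 3.2e-06). Col3a1, the chain of type III collagen, had 202 and 206 CPM at day 13, against 50.6, 37.4 and 39.9 CPM at day 9. The days did not overlap for any of these fibrillar collagens, and Col3a1 changed by 2.26 (SE 0.17, adjusted p = 8.0e-08). Col6a2, of the beaded-filament type VI collagen, had 22.6 and 29.8 CPM at day 13, against 10.1, 7.17 and 11.7 CPM at day 9, and changed by 1.45 (SE 0.24, adjusted p = 7.8e-04).

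Smaller rises within the same list, as log2 changes, were those of the basement membrane collagens Col4a1 (log2 change 0.80) and Col4a2 (0.59), of the matrix glycoprotein Sparc (0.85), of the gelatinase Mmp2 (1.37) and of the connective tissue growth factor Ctgf (1.18). Tagln, an actin-binding protein of contractile cells, rose by 1.59 and the intermediate filament gene Vim by 1.08 on the log2 scale. Markers that define the stellate cell rather than its matrix were not called: Lrat, the enzyme that esterifies vitamin A for storage, had 21.5 and 15.98 CPM at day 13 and 12.8, 16.5 and 24.7 CPM at day 9, and its adjusted p was 0.94. Des, a muscle-type intermediate filament, had 5.802 and 4.26 CPM at day 13 and 3.31, 5.79 and 6.28 CPM at day 9, and Reln, a secreted glycoprotein, had 189 and 208 CPM at day 13 and 172, 169 and 153 CPM at day 9. The summed level of the 28 markers was 2139.9 and 2217 CPM at day 13, against 1416, 1289 and 1315 CPM at day 9, with no marker at 0 in all livers. In these bulk livers, the number of cells of a type and the RNA per cell cannot be told apart. Without day 13 replicate 1 the list had 10 rises and without replicate 2 it had 8, again with 0 falls in each.

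Outside the naming rule and chosen after the values were seen, the collagen chaperone Serpinh1 had 33.1 and 27.2 CPM at day 13, against 9.48, 6.48 and 10.8 CPM at day 9, a log2 change of 1.76 (SE 0.28, adjusted p = 0.001). Col5a2, of the collagen that sets fibril width, had 9.28 and 12.3 CPM at day 13, against 1.96, 1.93 and 2.69 CPM at day 9, and changed by 2.29 (SE 0.34, adjusted p = 3.6e-04). The matricellular proteins Thbs1 and Thbs2, also chosen after their values were seen, rose by 2.35 and 1.91 on the log2 scale. In all 4 of these genes both day 13 livers were above every day 9 liver.

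Cytosolic chaperones were also among the rises. These proteins fold new or damaged polypeptides, and many are switched on by heat shock factor 1, which binds repeated inverted GAA units in their promoters. Of 21 heat shock genes tested, 10 rose and 0 fell, with a median log2 change of 0.48. Both inducible HSP70 genes were among the largest rises, and the bases before their starts are shown because the pair shares them. In each window a script looked for GAANNTTC or TTCNNGAA, the inverted pair at the core of the heat shock element, on both strands, in the 250 bases before each start in the RefSeq table (GRCm38.p6). Sequences are 5′ to 3′ on the gene's strand, with the match in capitals.
Hspa1a, chr17:34972217-34972306, minus strand: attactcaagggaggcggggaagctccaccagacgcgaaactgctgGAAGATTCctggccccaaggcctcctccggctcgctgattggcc
Hspa1b, chr17:34959299-34959388, minus strand: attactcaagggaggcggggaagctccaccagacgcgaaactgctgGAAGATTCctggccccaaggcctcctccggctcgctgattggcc
Hsph1, chr5:149636351-149636380, minus strand: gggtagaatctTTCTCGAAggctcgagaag
Hspb1, chr5:135887769-135887858, plus strand: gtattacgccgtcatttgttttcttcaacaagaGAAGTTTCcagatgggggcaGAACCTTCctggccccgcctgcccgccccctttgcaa

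The stretches of Hspa1a and Hspa1b are identical over all 90 bases, with the match starting 104 bases before the start, and their 250-base windows are identical at 247 bases (98.8%). The motif occurs in 12.8% of the 32851 windows, or for 14.5% of the 27025 symbols. Of 17 chaperones on the list with an entry, 9 (52.9%) held it, against 61 of 455 genes that rose (13.4%) and 52 of 426 that fell (12.2%). Hspa1a, Hspa1b and Hsph1 had a match and rose, while Dnaja1, Dnajb4, Fkbp4, Hspd1 and Hspe1 had a match and were not among the rises. Hspb1 had 2 matches and was not called. Bag3, Dnajb1, Chordc1 and Stip1 had no match in this window and rose. A match is a description of these letters and not a binding site.

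Hspa1a had 68.5 and 96.9 CPM at day 13, against 9.18, 10.2 and 12.7 CPM at day 9. Both day 13 livers were more than 5 times as high as any day 9 liver, with a log2 change of 2.95 (SE 0.25, adjusted p = 3.2e-06). Hspa1b had 70.8 and 98.02 CPM at day 13, against 8.88, 10.8 and 12.6 CPM at day 9, and changed by 2.98 (SE 0.24, adjusted p = 2.0e-06). The pair codes for nearly identical proteins, and 100% and 90% of their nonzero values were not whole, so reads are shared between them and the split is uncertain. Hspa1l, a testis-type relative next to them that also holds shared reads, had 12.8 and 19.7 CPM at day 13, against 0.903, 1.52 and 1.94 CPM at day 9. Its level stayed low, and its log2 change was 3.46 (SE 0.35, adjusted p = 5.1e-06).

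Hspa8, the constitutive HSC70, had 3643 and 4258 CPM at day 13, against 781, 1018 and 1256 CPM at day 9, a log2 change of 1.96 (SE 0.17, adjusted p = 6.8e-07). Bag3, a co-chaperone that hands HSP70 clients to autophagy, had 77.2 and 87.9 CPM at day 13, against 19.6, 25.4 and 21.1 CPM at day 9, and changed by 1.91 (SE 0.16, adjusted p = 3.9e-07). The libraries of the days did not overlap for either gene. Hsph1, an exchange factor for HSP70, had 216 and 255 CPM at day 13, against 75.5, 72.2 and 68.2 CPM at day 9, and changed by 1.71 (SE 0.18, adjusted p = 7.8e-06). On the log2 scale, Dnajb1, the HSP40 partner of HSP70, rose by 1.18, and the HSP90 genes Hsp90aa1 and Hsp90ab1 rose by 0.95 and 0.78. Chordc1, an HSP90 co-chaperone, rose by 0.87 and Stip1, the adaptor between HSP70 and HSP90, by 0.70 on the same scale. The chaperones of the mitochondrion were not called: Hspd1 (HSP60) had 429.9 and 507 CPM at day 13 and 489, 497 and 552 CPM at day 9, and Hspa9 had 656 and 624 CPM at day 13 and 699, 666 and 655 CPM at day 9. Hspb1, the small heat shock protein with both matches above, had 2.901 and 3.73 CPM at day 13 and 2.71, 3.86 and 3.74 CPM at day 9, values that overlap.

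Of 27 chaperones and folding factors of the endoplasmic reticulum, where plasma proteins fold, 7 rose and 0 fell, at a median log2 change of 0.16. Sdf2l1, a cofactor of BiP, had 66.1 and 51.1 CPM at day 13, against 27.1, 22.2 and 31.7 CPM at day 9, a log2 change of 1.12 (SE 0.19, adjusted p = 9.3e-04). Syvn1, the ubiquitin ligase of endoplasmic reticulum quality control, had 64.99 and 73.5 CPM at day 13, against 38.4, 29.5 and 27.8 CPM at day 9, and changed by 1.12 (SE 0.19, adjusted p = 9.1e-04). The log2 changes of Manf, a secreted stress factor, and of Hyou1, an exchange factor of the HSP70 family, were 0.99 and 0.58. Hspa5 (BiP) had 2079.5 and 1725 CPM at day 13, against 1681, 1146 and 1025 CPM at day 9, a log2 change of 0.57 (SE 0.17, adjusted p = 0.038). Both day 13 livers were above all day 9 livers for these genes. The list had 2 rises and 1 fall without day 13 replicate 1, 3 rises without replicate 2, and 3 rises and 2 falls under library totals.

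**Figure D2:**
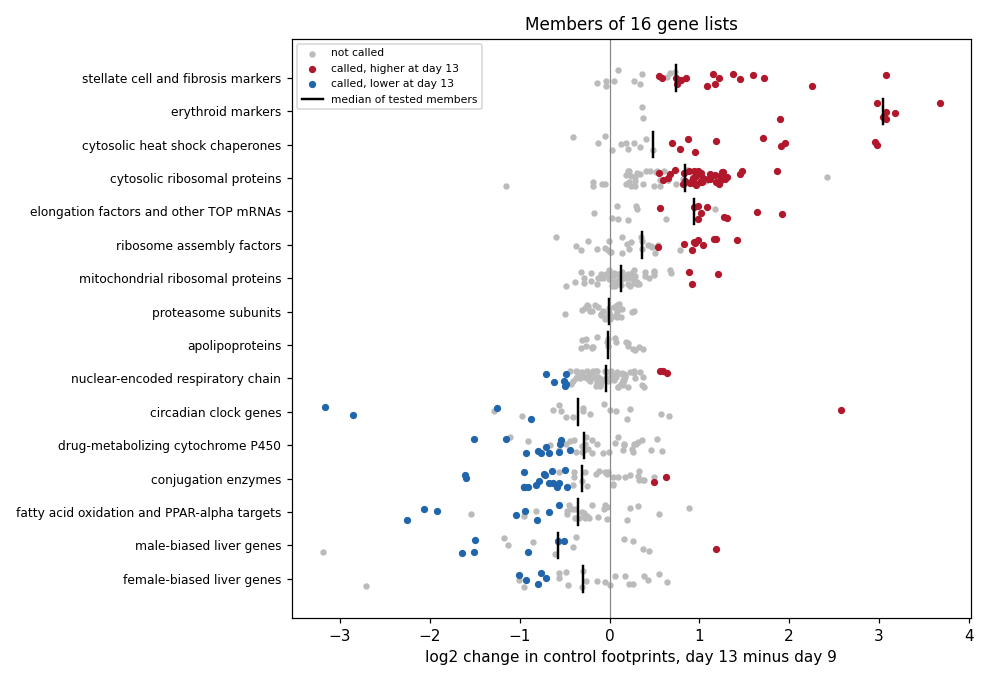
Log2 change of footprints in control livers, day 13 minus day 9 (horizontal axis), for the tested members of 16 gene lists, with 1 point per gene, called genes in red (higher at day 13) or blue (lower) and a bar at each list's median. Called ribosomal proteins, stellate cell and fibrosis markers and heat shock chaperones all lie to the right of 0, and called cytochromes P450 and PPAR-alpha targets all lie to the left.

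Of 76 cytosolic ribosomal protein genes tested, 38 rose at day 13 and 0 fell, with a median log2 change of 0.84. Their mRNAs, like those of elongation factors, begin with a terminal oligopyrimidine (TOP) tract through which mTORC1 sets their translation. Their summed level was 5237 and 7080.0 CPM at day 13, against 3462, 3469.8 and 4865 CPM at day 9. Both day 13 sums exceeded those of the day 9 livers, of which replicate 3 was the highest. Without day 13 replicate 2 only 1 member was called, and without day 13 replicate 1 there were 32; leaving out day 9 replicates 1, 2 and 3 gave 24, 22 and 51.

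Rpl28 had 73.1 and 84.2 CPM at day 13, against 25.9, 29.9 and 45.4 CPM at day 9, a log2 change of 1.22 (SE 0.21, adjusted p = 0.0017). Rpl15 had 66.1 and 84.2 CPM at day 13, against 34.8, 31.6 and 47.7 CPM at day 9, and changed by 0.99 (SE 0.18, adjusted p = 0.0019). Rps10 had 162 and 245 CPM at day 13, against 72.8, 85.7 and 124 CPM at day 9, and changed by 1.11 (SE 0.20, adjusted p = 0.0021). The days did not overlap for any of these, but day 9 replicate 3 came closest to day 13 each time. Rack1, a scaffold protein of the small subunit, had 149 and 203 CPM at day 13, against 61.7, 59.8 and 91.8 CPM at day 9, a log2 change of 1.31 (SE 0.22, adjusted p = 0.0019).

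Of 19 elongation factors and other TOP mRNAs, 10 rose and 0 fell (median 0.94), with 7 rises without day 13 replicate 1 and 2 without replicate 2. Eef1g, a subunit of the factor that recharges the elongation factor eEF1A, had 99.8 and 123 CPM at day 13, against 51.9, 50.9 and 71.2 CPM at day 9, a log2 change of 0.94 (SE 0.16, adjusted p = 0.0013). Eef2, the translocation factor, had 889 and 1476 CPM at day 13, against 204, 281 and 455 CPM at day 9, and changed by 1.92 (SE 0.44, adjusted p = 0.04). Tpt1, whose mRNA carries a classical TOP tract, rose by 0.99 on the log2 scale. The 14 eIF3 subunits tested had 3 rises, with log2 changes in Eif3f (1.01), Eif3k (0.62) and Eif3l (0.65), and 0 falls, with 1 fall added under library totals, and had 1 rise without day 13 replicate 1 and 0 without replicate 2. Of 31 other initiation factors 5 rose and 2 fell, or 1 and 2 under library totals; without day 13 replicate 1 or 2 they had 0 rises. Over all genes tested, 5.47% rose and 4.88% fell. Eif1, which keeps the scanning ribosome open, had 405 and 419 CPM at day 13, against 247, 251 and 303 CPM at day 9, a log2 change of 0.63 (SE 0.14, adjusted p = 0.0083). Eif4g2, which drives cap-independent initiation, fell, with 81.8 and 82.6 CPM at day 13, against 157, 136 and 152 CPM at day 9, a log2 change of -0.85 (SE 0.16, adjusted p = 0.0022).

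Ribosome assembly factors, which process ribosomal RNA in the nucleolus, had 10 rises and 0 falls of 34 (median 0.36), with 6 rises without day 13 replicate 1, 2 without replicate 2, and 8 rises with 2 falls under library totals. Ddx21, a nucleolar helicase, had 67.3 and 75.1 CPM at day 13, against 37.3, 38.9 and 35.4 CPM at day 9, a log2 change of 0.94 (SE 0.15, adjusted p = 8.6e-04). Rrp12, needed for export of both subunits in yeast, had 22.05 and 18.1 CPM at day 13, against 9.18, 6.76 and 6.58 CPM at day 9, and changed by 1.42 (SE 0.25, adjusted p = 0.0014). Both day 13 livers were above every day 9 liver for these genes. Mitochondrial ribosomal proteins had 3 rises, among them Mrps12 (log2 change 1.21), and 0 falls of 57. Nuclear-encoded respiratory chain subunits had 3 rises and 6 falls of 76. Among all genes tested 5.47% rose and 4.88% fell. With day 13 replicate 1 or replicate 2 left out, the mitochondrial ribosomal proteins had 1 and 2 rises, and the respiratory chain 0 rises in each case with 1 and 0 falls. Of 32 proteasome subunits 0 were called by edgeR, 1 at an unadjusted p under 0.05, 0 by DESeq2 and 1 (lower) under library totals; Psmb4 had 237 and 202 CPM at day 13 and 216, 225 and 216 CPM at day 9. Of 26 cell cycle genes 0 were called by edgeR, 3 at an unadjusted p under 0.05 and 0 by DESeq2; Pcna had 51.1 and 55.9 CPM at day 13 and 46.2, 42.05 and 42.2 CPM at day 9.

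Globin mRNAs, which mark red cells and their precursors, were among the largest rises by the naming rule and differed between the day 13 livers. Of 9 erythroid markers tested 7 rose and 0 fell, with a median log2 change of 3.04. Hba-a1 had 2280.3 and 728 CPM at day 13, against 167, 209 and 157 CPM at day 9. Day 13 replicate 1 held about 3 times the level of day 13 replicate 2, and both were above every day 9 liver; the log2 change was 3.08 (SE 0.54, adjusted p = 0.017). Hbb-bs had 135 and 42.6 CPM at day 13, against 9.93, 11.6 and 10.6 CPM at day 9, and changed by 3.04 (SE 0.50, adjusted p = 0.011). Hbb-bt had 121 and 39.4 CPM at day 13, against 8.88, 10.9 and 10.5 CPM at day 9, and changed by 2.98 (SE 0.47, adjusted p = 0.0085). The adult globin genes are near-identical pairs, and Hba-x, the embryonic alpha-type globin with 39.5 and 11.7 CPM at day 13, against 2.11, 2.76 and 2.09 CPM at day 9, also holds fractional counts, so which copy a read came from is uncertain. Alas2, the erythroid enzyme of heme synthesis, had 46.4 and 14.4 CPM at day 13, against 8.73, 8.27 and 7.18 CPM at day 9, a log2 change of 1.90 (SE 0.36, adjusted p = 0.0049). In RNA of the same livers Hba-a1 had 272 and 88.8 CPM at day 13, against 256, 326 and 284 CPM at day 9, and Hbb-bs had 330.3 and 73.6 CPM at day 13, against 78.6, 106 and 98.7 CPM at day 9. Day 13 replicate 1 was again several times as high as replicate 2, but RNA of the days overlapped in Hba-a1 and, in Hbb-bs, replicate 2 was under every day 9 liver. Alas2 RNA had 78.3 and 41.5 CPM at day 13, against 18.5, 19.1 and 16.5 CPM at day 9, higher at day 13 with no overlap. The red cell membrane protein Slc4a1 was low, with 5.22 and 1.07 CPM at day 13 and 0, 0.276 and 0.1495 CPM at day 9, under the level needed for a test. The summed level of the erythroid list was 5509 and 1728 CPM at day 13, against 403, 495 and 380.2 CPM at day 9, and its part in other day changes was not tested. The count of called erythroid markers was 5 without day 13 replicate 1, 3 without any one of the day 9 livers and 2 when the 5 control libraries were fitted alone.

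**Figure D3:**
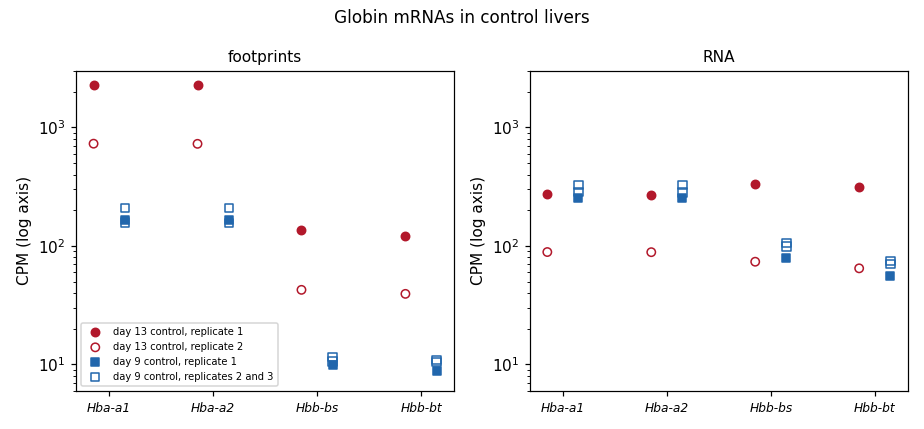
Adult globin genes in each control liver, day 13 left of day 9, in footprints (left panel) and in RNA of the same livers (right panel), as CPM on a log axis with 1 point per liver. In footprints both day 13 livers lie above all day 9 livers, and in RNA day 13 replicate 2 lies at or under the day 9 livers; day 13 replicate 1 lies above replicate 2 in both assays.

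Clock genes were lower where they changed, apart from Arntl. The liver clock runs on BMAL1 (Arntl) and CLOCK, which activate Per, Cry and Nr1d genes, whose proteins repress them in turn, so that levels swing widely over the day. Of 22 clock genes tested 1 rose and 4 fell, with a median log2 change of -0.35. The stretches before the starts of Per3 and Bhlhe41, the genes that fell most, hold letters of the elements the clock acts through, printed as above. TTATGTAA or TTACGTAA, a form of the D-box read by DBP and TEF, is in capitals for Per3, and CACGTG, the E-box read by BMAL1 and CLOCK, for Bhlhe41.
Per3, chr4:151044796-151044895, minus strand: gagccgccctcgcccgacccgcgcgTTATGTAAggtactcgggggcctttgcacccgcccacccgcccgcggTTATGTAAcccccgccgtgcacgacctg
Bhlhe41, chr6:145865525-145865614, minus strand: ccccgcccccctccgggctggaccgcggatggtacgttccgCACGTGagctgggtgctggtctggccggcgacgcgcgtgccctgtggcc

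The D-box form occurred for 1.1% of the 27025 symbols (0.931% of windows) and in 1 of 19 clock genes with an entry (5.26%), Per3, which held 2 copies, 205 and 158 bases before the start. Of all genes that fell, 8 of 426 held it (1.88%), and of those that rose 4 of 455 (0.879%). The E-box occurred for 6.86% of symbols (6.02% of windows) and in 5 of the 19 clock genes (26.3%), against 46 of 426 genes that fell (10.8%) and 37 of 455 that rose (8.13%).

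Per3, a period gene, had 1.16 and 1.598 CPM at day 13, against 11.4, 15.03 and 11.5 CPM at day 9. All day 9 livers were far above both day 13 livers, with a log2 change of -3.17 (SE 0.47, adjusted p = 3.4e-04). Nr1d2, a REV-ERB repressor, had 20.9 and 22.4 CPM at day 13, against 55.1, 58.5 and 40.96 CPM at day 9, and changed by -1.25 (SE 0.21, adjusted p = 8.6e-04). Bhlhe41 had 2 counts in all at day 13 against 86 at day 9, a ratio of 0.133 with a 95% exact counting interval of 0.0158 to 0.495, which covers counting error only. Wee1, a mitotic kinase driven by the liver clock, had 2.32 and 2.66 CPM at day 13, against 10.5, 13.5 and 10.2 CPM at day 9, a log2 change of -2.18 (SE 0.48, adjusted p = 0.007). Arntl had 6.96 and 1.598 CPM at day 13, against 0.602, 0.414 and 1.05 CPM at day 9, and changed by 2.58 (SE 0.68, adjusted p = 0.019). The list had 2 falls without day 13 replicate 1, 2 without replicate 2 and 2 by DESeq2, which gave no adjusted p for Arntl. Arntl was not called without day 13 replicate 1 (log2 change 1.196, adjusted p = 0.61).

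Other clock outputs set the day 13 livers apart from each other. Dbp, a D-box activator, had 27.3 and 74.6 CPM in day 13 replicates 1 and 2, against 87.9, 116 and 98.4 CPM at day 9, and Tef, its relative, had 24.4 and 62.9 CPM against 98.5, 117 and 107 CPM. Usp2, a deubiquitinase with a strong daily rhythm, had 6.96 and 28.8 CPM, against 20.9, 30.7 and 29.004 CPM. In all of these day 13 replicate 1 was lower than replicate 2, whereas Arntl, Clock and Nfil3 were higher in replicate 1. Clock had 6.96 and 1.598 CPM at day 13 and 6.47, 6.204 and 5.68 CPM at day 9. None of Dbp, Tef, Usp2 and Clock was called (adjusted p 0.29, 0.18, 0.70 and 0.62). The labels give no hour of collection, and its part in these values was not tested.

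Some genes of the list of fatty acid oxidation and PPAR-alpha targets fell at day 13. PPAR-alpha is the nuclear receptor that senses fatty acids and switches on their oxidation. Of 36 tested 0 rose and 8 fell, with a median log2 change of -0.36. Cyp4a10, a fatty acid omega-hydroxylase and classical target of the receptor, had 26.7 and 15.4 CPM at day 13, against 83.95, 89.2 and 90.6 CPM at day 9. Both day 13 livers were well under all day 9 livers, with a log2 change of -2.07 (SE 0.31, adjusted p = 0.0014). Its neighbours in the same cluster, which share reads with it, behaved alike: Cyp4a31 had 18.6 and 11.7 CPM at day 13, against 64.996, 75.96 and 74.5 CPM at day 9, a log2 change of -2.25 (SE 0.29, adjusted p = 2.7e-04), and Cyp4a32 changed by -1.93 (SE 0.29, adjusted p = 7.8e-04). Ppara itself had 128 and 123 CPM at day 13, against 265, 289 and 218 CPM at day 9, and changed by -1.04 (SE 0.18, adjusted p = 0.0015). The days did not overlap. The peroxisomal fatty acid transporter Abcd2, kept on the female-biased list, had 39.5 and 39.95 CPM at day 13, against 83.5, 78.9 and 76.5 CPM at day 9, a log2 change of -1.003 (SE 0.16, adjusted p = 7.3e-04). Cpt1a, which gates mitochondrial oxidation, was not called, with a log2 change of -0.38. The list had 6 falls without day 13 replicate 1 and 5 without replicate 2.

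Some enzymes of drug clearance fell too. Of 44 drug-metabolizing cytochromes P450 tested 0 rose and 11 fell, at a median log2 change of -0.28. Cyp2c44 had 143 and 128 CPM at day 13, against 289, 324 and 292 CPM at day 9, a log2 change of -1.15 (SE 0.20, adjusted p = 0.0014). Cyp2u1, which hydroxylates long fatty acids, had 4.06 and 5.86 CPM at day 13, against 16.4, 14.6 and 11.7 CPM at day 9, and changed by -1.51 (SE 0.32, adjusted p = 0.0052). Members of the Cyp2c cluster share sequence, so the split of reads between Cyp2c69 (log2 change -0.94) and Cyp2c40 (-0.71) is uncertain. Of 43 conjugation enzymes 17 fell and 2 rose (median -0.31). Sult1b1, a cytosolic sulfotransferase, had 12.8 and 12.8 CPM at day 13, against 42.9, 34.7 and 38.7 CPM at day 9, a log2 change of -1.60 (SE 0.21, adjusted p = 1.4e-04). Both day 13 livers were under every day 9 liver. Sult5a1 had 17.99 and 15.4 CPM at day 13, against 50.3, 57.9 and 44.3 CPM at day 9, and changed by -1.61 (SE 0.28, adjusted p = 0.0017). Gsta3, a glutathione transferase, had 906 and 989.7 CPM at day 13, against 1921, 1427 and 1565 CPM at day 9, and Ugt3a2, a glycosyltransferase, had 404 and 406 CPM at day 13, against 699.6, 624 and 611 CPM at day 9. The days did not overlap for either, and their log2 changes were -0.79 and -0.67. Without day 13 replicate 1 or 2, 4 and 4 of the cytochromes and 7 and 2 of the conjugation enzymes were still called lower.

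Of 31 bile acid genes 2 rose and 3 fell, against 5.47% and 4.88% of all genes tested. Cyp8b1, which makes cholic acid, had 291 and 385 CPM at day 13, against 177, 93.6 and 105 CPM at day 9, a log2 change of 1.44 (SE 0.36, adjusted p = 0.043). Cyp7a1, the rate-limiting enzyme of bile acid synthesis and named after its values were seen, had 52.8 and 361 CPM at day 13 and 87.7, 52.8 and 112 CPM at day 9 and was not called (adjusted p = 0.34); day 13 replicate 2 held the highest value and replicate 1 lay at the low end of the day 9 values. Cholesterol synthesis had 0 rises and 2 falls of 25, with log2 changes of -0.73 in Hsd17b7 and -0.49 in Ebp. Fatty acid and triglyceride synthesis had 3 rises and 3 falls of 27. Agpat2, which adds the second fatty acid to the glycerol backbone, had 70.8 and 87.9 CPM at day 13, against 37.6, 33.2 and 33.6 CPM at day 9, a log2 change of 1.19 (SE 0.17, adjusted p = 3.1e-04). Without day 13 replicate 1, bile acid genes had 1 fall, cholesterol synthesis 0 calls and fat synthesis 1 rise and 1 fall; without replicate 2, fat synthesis had 1 rise and the others 0 calls.

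G6pc, the catalytic subunit that releases free glucose from glucose 6-phosphate, had 138 and 112 CPM at day 13, against 24.1, 25.8 and 32.3 CPM at day 9. It rose by more than 4-fold with no overlap, at a log2 change of 2.19 (SE 0.27, adjusted p = 7.1e-04). Of 26 genes of glucose output and glycogen 4 rose and 3 fell, against 5.47% and 4.88% of all genes tested. Slc2a2, the glucose transporter of hepatocytes, had 340.0 and 365 CPM at day 13, against 595, 519.9 and 533 CPM at day 9, a log2 change of -0.64 (SE 0.14, adjusted p = 0.0066). Pck1, the other gate of glucose synthesis, was not called (log2 change 0.36, adjusted p = 0.54). The adaptors of insulin signalling moved in opposite directions: Irs1 had 45.3 and 49.01 CPM at day 13, against 13.8, 18.2 and 18.99 CPM at day 9, a log2 change of 1.47 (SE 0.19, adjusted p = 8.5e-05), and Irs2 had 15.1 and 15.98 CPM at day 13, against 32.5, 27.3 and 21.8 CPM at day 9, a change of -0.81 (SE 0.24, adjusted p = 0.035). Of 41 urea cycle and amino acid genes 5 rose and 4 fell. Glud1, which takes ammonia off glutamate, had 2054 and 2066 CPM at day 13, against 817, 1076 and 1259 CPM at day 9, a log2 change of 0.97 (SE 0.15, adjusted p = 7.0e-04). Gpt2, the mitochondrial alanine transaminase, had 106 and 167 CPM at day 13, against 276, 301 and 311 CPM at day 9, and changed by -1.11 (SE 0.17, adjusted p = 4.7e-04). Nags, whose product switches on the urea cycle, rose by 0.63 on the log2 scale. Without day 13 replicate 1 the glucose list had 2 rises and 0 falls and the amino acid list 3 rises and 1 fall; without replicate 2 they had 1 rise and 0 falls, and 1 rise and 1 fall.

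Several abundant plasma protein mRNAs held more footprints at day 13. Trf (transferrin, the iron carrier) had 39369 and 41439 CPM at day 13, against 18356, 20541 and 25412 CPM at day 9, a log2 change of 0.91 (SE 0.15, adjusted p = 7.5e-04). Ahsg (fetuin A) had 17528 and 14541 CPM at day 13, against 8718, 9744 and 9008 CPM at day 9, and changed by 0.81 (SE 0.14, adjusted p = 0.0013). Both genes separated the days in every liver. Alb had 212461 and 208803 CPM at day 13 and 144509, 138850.0 and 174817 CPM at day 9 and a log2 change of 0.46 (SE 0.15, adjusted p = 0.053). Of 33 acute phase genes 5 rose and 2 fell, against 5.47% and 4.88% of all genes tested. Hp (haptoglobin, which binds free hemoglobin) had 5902 and 7910.5 CPM at day 13, against 2881, 3745 and 3717 CPM at day 9, a log2 change of 1.002 (SE 0.17, adjusted p = 0.001), and the C-reactive protein gene Crp rose by 0.66 on the log2 scale. Saa1, a strongly inducible acute phase gene named after its values were seen, had 45.3 and 573 CPM at day 13 and 16.1, 18.2 and 74.3 CPM at day 9; day 13 replicate 2 was the highest, the days overlapped, and the adjusted p was 0.14. The acute phase list had 2 rises and 1 fall without day 13 replicate 2.

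Of 44 coagulation and complement genes 8 fell and 1 rose, with a median of 0.01; without day 13 replicate 1 or 2 1 fall was called in each case. Over all genes tested, 4.88% fell and 5.47% rose. C6, of the membrane attack complex, had 9.86 and 13.8 CPM at day 13, against 42.7, 36.1 and 32.7 CPM at day 9, a log2 change of -1.64 (SE 0.23, adjusted p = 2.4e-04). Mbl2, a lectin that starts complement activation, had 554 and 539 CPM at day 13, against 802, 798 and 893 CPM at day 9, and C9 fell by 0.75 on the log2 scale. Of 13 clade A serpins on the list 5 rose and 1 fell. The list does not hold the whole clade: Serpina3c, Serpina3k and Serpina3m were all called lower. Of the alpha-1-antitrypsin copies, Serpina1b, Serpina1c, Serpina1d and Serpina1e rose, with Serpina1e at 261 and 288 CPM at day 13, against 102, 119.9 and 141 CPM at day 9, a log2 change of 1.18 (SE 0.20, adjusted p = 0.0014), while Serpina3c had 154 and 125 CPM at day 13, against 315, 309 and 215 CPM at day 9, a change of -1.01 (SE 0.18, adjusted p = 0.0017). The copies share reads, so the split among them is uncertain, and without day 13 replicate 1 or 2 the list had 1 rise in each case. Of 10 major urinary proteins 0 rose and 3 fell, among them Mup20 with 9.28 and 4.26 CPM at day 13, against 16.1, 22.1 and 18.4 CPM at day 9, a log2 change of -1.49 (SE 0.34, adjusted p = 0.0075); without day 13 replicate 2 they had 1 rise and 0 falls. Of 20 apolipoproteins 0 were called by edgeR, 2 at an unadjusted p under 0.05, 0 by DESeq2 and 1 (lower) under library totals; Apoe had 30606 and 29762 CPM at day 13 and 25347, 28892 and 25796 CPM at day 9.

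Lists of sex-biased liver genes, which growth hormone patterns, had more falls than rises: 6 of 19 male-biased genes fell and 1 rose, and 5 of 26 female-biased genes fell and 0 rose. The labels give no sex. The Y-linked genes Ddx3y and Eif2s3y were detected in all 5 control livers: Ddx3y had 24.4 and 20.2 CPM at day 13 and 17.6, 21.8 and 21.8 CPM at day 9, and Eif2s3y had 2.32 and 3.73 CPM at day 13 and 3.46, 3.72 and 5.23 CPM at day 9, with 0 of these 2 genes called by edgeR, 0 at an unadjusted p under 0.05 and 0 by DESeq2. Xist, with 1.74 and 1.07 CPM at day 13 and 0.451, 0.827 and 0.598 CPM at day 9, was too low to be tested. Of 18 genes of the growth hormone and IGF axis 2 rose and 1 fell. Over all genes tested, 5.47% rose and 4.88% fell. Igfbp3, the main carrier of IGF1 in blood, had 73.1 and 70.3 CPM at day 13, against 27.7, 33.9 and 41.3 CPM at day 9, a log2 change of 1.06 (SE 0.18, adjusted p = 0.0013), whereas Igf1 had 536 and 514 CPM at day 13 and 438, 508 and 498 CPM at day 9 and Ghr, the growth hormone receptor, had 262 and 286 CPM at day 13 and 389, 352 and 327 CPM at day 9, neither of them called. The male-biased list had 4 falls without day 13 replicate 1 and 2 without replicate 2, and the female-biased list 2 and 3.

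Markers of the macrophages moved in different directions. Of 15 Kupffer cell markers 0 rose and 3 fell, with a median log2 change of -0.13. Cd163, the scavenger receptor for hemoglobin and haptoglobin, had 1.16 and 1.07 CPM at day 13, against 9.93, 9.79 and 13.5 CPM at day 9. It was the largest fall by the naming rule, at a log2 change of -3.29 (SE 0.55, adjusted p = 9.9e-04). This fall rests on 4 counts in all at day 13, against 227 at day 9. Marco, another scavenger receptor, had 1.74 and 3.196 CPM at day 13, against 8.12, 14.5 and 10.3 CPM at day 9, and changed by -2.13 (SE 0.43, adjusted p = 0.0034). The lectin Clec4f, which is specific to Kupffer cells in mouse liver, changed by -0.56 (SE 0.17, adjusted p = 0.045). The complement gene C1qa had 81.8 and 83.1 CPM at day 13 and 74.2, 86.02 and 99.7 CPM at day 9, and Adgre1 (F4/80) had 10.4 and 8.52 CPM at day 13 and 6.32, 9.24 and 7.03 CPM at day 9; their adjusted p-values were 0.83 and 0.54. The summed level of the 15 markers was 989 and 1017 CPM at day 13, against 970.0, 1078 and 1145 CPM at day 9, and so overlapped between the days. The list had 1 fall without day 13 replicate 1 and 3 without replicate 2.

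Of 16 monocyte and macrophage markers 3 rose and 0 fell. Lyz2, the lysozyme of myeloid cells, had 72.5 and 72.4 CPM at day 13, against 21.8, 27.2 and 30.2 CPM at day 9, a log2 change of 1.46 (SE 0.17, adjusted p = 2.5e-05), and Lyz1 had 45.8 and 39.4 CPM at day 13, against 13.5, 16.4 and 18.2 CPM at day 9, a change of 1.40 (SE 0.21, adjusted p = 3.2e-04). The lysozymes are near-identical neighbours whose reads are shared. Of 19 sinusoidal endothelial markers 2 rose and 0 fell, Lyve1, the hyaluronan receptor, with 21.5 and 20.2 CPM at day 13, against 8.58, 7.44 and 5.83 CPM at day 9 and a log2 change of 1.51 (SE 0.26, adjusted p = 0.0013), and Gpr182, with a log2 change of 0.72. Of 6 neutrophil markers 0 were called by edgeR, 3 at an unadjusted p under 0.05 and 0 by DESeq2, and of 8 cholangiocyte markers 0 by edgeR, 2 at an unadjusted p under 0.05 and 0 by DESeq2. Only 4 lymphocyte markers were abundant enough to test, with 0 called by edgeR, 0 at an unadjusted p under 0.05 and 0 by DESeq2. Of 3 markers of pancreas, fat, muscle or gut tested, Fabp2, the intestinal fatty acid binding protein, was lower, with 26.7 and 20.2 CPM at day 13, against 69.5, 84.5 and 67.1 CPM at day 9, a log2 change of -1.66 (SE 0.20, adjusted p = 6.2e-05). Interferon-stimulated genes had 2 rises and 2 falls of 43, against 5.47% and 4.88% of all genes tested. Of 22 MHC genes 2 rose and 1 fell, with H2-D1, which presents peptides to cytotoxic T cells, at 218 and 195 CPM at day 13, against 122, 127 and 114 CPM at day 9, a log2 change of 0.77 (SE 0.14, adjusted p = 0.0019). The monocyte list had 2 rises without day 13 replicate 1 and 3 without replicate 2, the endothelial list 1 and 1, the MHC list 1 and 1, and the interferon list 1 and 0 with 0 falls in each case.

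Stress lists other than the chaperones held calls in both directions, apart from the integrated stress response. Of its 24 genes 2 rose, Ddit4 and Nupr1. Ddit4, an inhibitor of mTORC1, had 11.6 and 18.1 CPM at day 13, against 4.66, 3.17 and 6.73 CPM at day 9, a log2 change of 1.62 (SE 0.32, adjusted p = 0.0033). Of 21 p53 targets 2 rose and 1 fell, and of 18 immediate early genes 4 rose and 2 fell. Over all genes tested, 5.47% rose and 4.88% fell. Junb, an AP-1 subunit, had 13.9 and 7.46 CPM at day 13, against 34.6, 35.3 and 36.2 CPM at day 9, a log2 change of -1.74 (SE 0.35, adjusted p = 0.0062), while Jun, its partner, had 24.4 and 17.05 CPM at day 13, against 8.88, 9.79 and 7.77 CPM at day 9, a change of 1.22 (SE 0.30, adjusted p = 0.014). The iron genes Tfrc and Fth1 moved oppositely: Tfrc, the transferrin receptor, had 40.6 and 31.96 CPM at day 13, against 9.18, 11.9 and 17.6 CPM at day 9, a log2 change of 1.49 (SE 0.28, adjusted p = 0.0037), and Fth1, the heavy chain of ferritin, had 323 and 164 CPM at day 13, against 501, 623 and 448 CPM at day 9, a change of -1.11 (SE 0.27, adjusted p = 0.026). When day 13 replicate 1 or replicate 2 was left out, the integrated stress response had 1 and 0 rises, p53 targets 0 and 0 calls, and immediate early genes 2 rises with 2 falls and 1 rise with 0 falls.

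Among the largest falls with no list, Srsf5, a splicing factor, had 60.3 and 52.2 CPM at day 13, against 252, 239 and 231 CPM at day 9. The groups were about 4-fold apart with little spread, at a log2 change of -2.10 (SE 0.15, adjusted p = 5.3e-08). Klhl24, a substrate adaptor of a ubiquitin ligase, had 14.5 and 16.5 CPM at day 13, against 71.8, 70.3 and 62.2 CPM at day 9, and changed by -2.13 (SE 0.20, adjusted p = 1.6e-06). Sucnr1, the succinate receptor, had 1.74 and 4.26 CPM at day 13, against 11.7, 13.2 and 18.8 CPM at day 9, and changed by -2.25 (SE 0.40, adjusted p = 0.0014). Each of the 3 genes separated the days, as the naming rule requires of the largest falls. Ipmk, an inositol phosphate kinase, fell by 2.15 on the log2 scale. Noncoding RNAs without a ribosome-made product were also counted. Rmrp, the RNA of the mitochondrial RNA processing enzyme, had 28.4 and 20.8 CPM at day 13, against 6.17, 6.34 and 4.93 CPM at day 9, a log2 change of 2.07 (SE 0.25, adjusted p = 5.2e-05), and Rny1, a small RNA bound by the Ro protein, had 13.9 and 16.5 CPM at day 13, against 42.7, 55.01 and 56.96 CPM at day 9, a change of -1.76 (SE 0.27, adjusted p = 7.8e-04). For such RNAs the counts are protected fragments and not translation.

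The Eif3m siRNA livers repeat the same days in other animals, and there 2313 of the 12213 genes (18.9%) were called, 1248 higher (10.2%) and 1065 lower (8.72%) at day 13. Of the 668 genes that rose in control livers, 587 (87.9%) had the same sign in Eif3m livers and 363 (54.3%) were called higher there, which is 29.1% of the 1248. Of the 668, 9 were called lower there. Of the 596 that fell, 543 (91.1%) had the same sign and 298 (50%) were called lower, which is 28% of the 1065, and 3 were called higher. The share with the same sign over all genes tested was not computed, so the same-sign shares have no background beside them. The rises had a median log2 change of 0.96 in control and 0.66 in Eif3m livers, and the falls -0.89 in control and -0.56 in Eif3m livers. Across 8606 genes with at least 5 CPM on average in control footprints, the day changes of the sets correlated with r = 0.552; genes are not independent, and the day and the ID series are common to both sets. Without Eif3m day 13 replicate 2 only 343 genes were called in Eif3m livers.

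**Figure D4:**
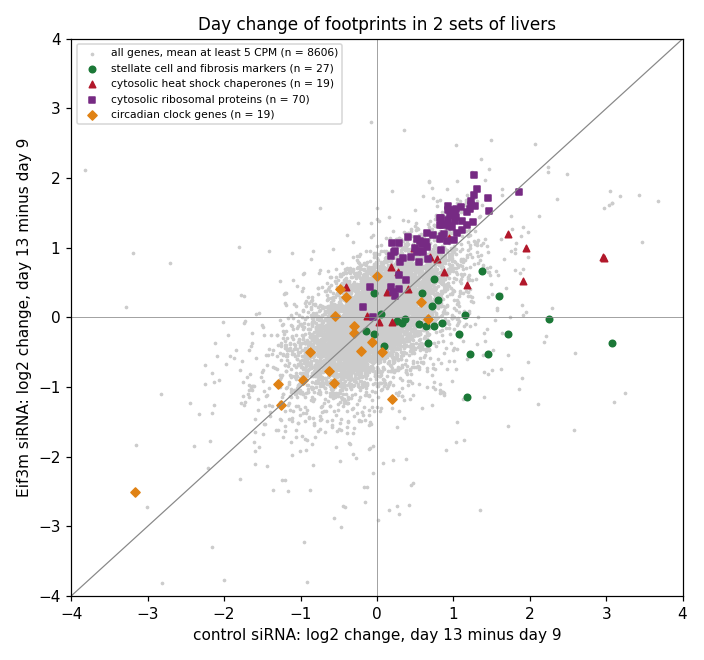
Day 13 minus day 9 log2 change of each gene in control livers (horizontal axis) and in Eif3m siRNA livers (vertical axis), for 8606 genes with at least 5 CPM on average (4 lie outside the axes), with members of 4 lists coloured and a line of equal change. Col1a1, Col1a2, Col3a1 and Col6a2 lie to the right and slightly under 0 on the vertical axis. Hspa1a and Hspa1b lie to the right and above 0. Ribosomal proteins, with a median of 0.84 in control and 1.18 in Eif3m livers over those tested, lie as a group above the line. Per3 lies under 0 on both axes and fell more in control livers.

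A test of the difference itself, the control day change minus the Eif3m day change, called 100 genes (0.819%), 73 higher (0.598%) and 27 lower (0.221%) in control livers; 43 of the control rises and 16 of the control falls were among the genes called. Of the stellate and fibrosis list 8 were called in this test, all higher in control. Col1a1 had 28.6 and 22.6 CPM at day 13, against 37.4, 29.9 and 28.5 CPM at day 9 in Eif3m livers, where its log2 change was -0.36 (adjusted p = 0.23), and the difference was 3.44 (SE 0.28, adjusted p = 1.4e-06). Col3a1 and Col1a2 differed by 2.28 (SE 0.24, adjusted p = 3.6e-05) and 1.96 (SE 0.24, adjusted p = 3.2e-04). None of these 3 collagens was called in Eif3m livers, whose day 9 values of Col1a1 were above those of control livers. Hspa1a had 34.9 and 37.3 CPM at day 13, against 28.1, 13.7 and 19.1 CPM at day 9 in Eif3m livers, a log2 change of 0.86 (adjusted p = 0.022), and the difference was 2.09 (SE 0.35, adjusted p = 0.01). Bag3 differed by 1.39 (SE 0.23, adjusted p = 0.0071). Other chaperones rose in both sets: Hsph1 changed by 1.19 (adjusted p = 1.1e-04) in Eif3m livers, Hsp90aa1 by 1.14 (adjusted p = 1.1e-04) and Stip1 by 0.87 (adjusted p = 1.4e-04).

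Lyz2 was called in opposite directions in the sets, with 43.5 and 44.6 CPM at day 13, against 68.8, 76.995 and 86.8 CPM at day 9 in Eif3m livers, a log2 change of -0.81 (adjusted p = 0.002), and a difference of 2.27 (SE 0.24, adjusted p = 3.6e-05). G6pc had 114 and 85.2 CPM at day 13, against 78.7, 159.9 and 138 CPM at day 9 in Eif3m livers and differed by 2.55 (SE 0.38, adjusted p = 0.011). Srsf5 fell in both sets, by 0.55 on the log2 scale in Eif3m livers, and differed by -1.54 (SE 0.20, adjusted p = 4.0e-04). Without Eif3m day 13 replicate 2 the test of the difference called 7 genes, and without control day 13 replicate 1 or 2 it called 43 and 24. Without control day 9 replicate 2 it called 52, without Eif3m day 13 replicate 1 it called 65, without Eif3m day 9 replicate 1 it called 172 and without Eif3m day 9 replicate 3 it called 59.

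Other groups had calls in the same direction in both sets. Ribosomal proteins had 66 rises and 0 falls of 76 in Eif3m livers (median 1.18), and 0 of them were called in the difference by edgeR. Ppara changed by -1.52 (adjusted p = 3.0e-05) in Eif3m livers, Per3 by -2.50 (adjusted p = 9.2e-05) and Klhl24 by -1.25 (adjusted p = 5.7e-05). Arntl changed by 2.58 (adjusted p = 0.002), Rmrp by 2.50 (adjusted p = 4.6e-06) and Sult1b1 by -2.11 (adjusted p = 9.0e-06). Each of these went the same way as in control livers. Cd163 in Eif3m livers had 0 and 1.23 CPM at day 13, against 0.407, 1.16 and 0.923 CPM at day 9, a log2 change of 0.15 (adjusted p = 0.90), and its difference of -3.43 (SE 0.93, adjusted p = 0.10) was not called.

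**Figure D5:**
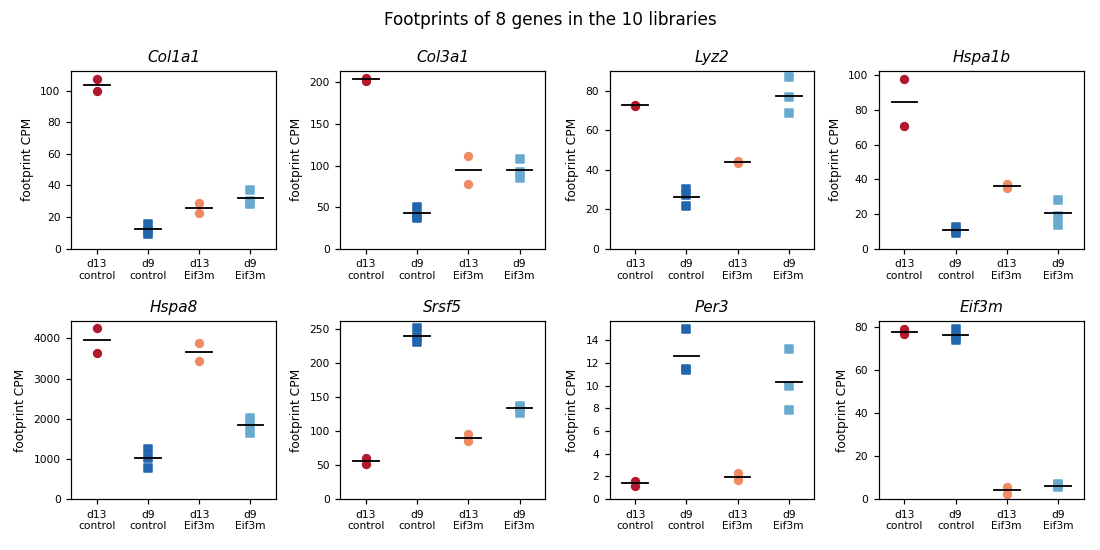
Footprint CPM (linear axis from 0) of 8 genes in control and Eif3m siRNA livers, day 13 left of day 9 in each, with 1 point per liver and a line at the mean. In control livers Col1a1, Col3a1, Lyz2 and Hspa1b are higher at day 13; in Eif3m livers Lyz2 is lower at day 13, Col1a1 and Col3a1 were not called and Hspa1b is higher. Hspa8 is higher and Srsf5 and Per3 are lower at day 13 in both, and Eif3m is low in every Eif3m siRNA liver.

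RNA of the same control livers was made with the NeoPrep kit at day 13 and the KAPA mRNA capture kit at day 9, so kit and day cannot be told apart there and no test was run. Of 9590 genes with at least 5 CPM in either RNA group, 38.9% were higher and 47.5% lower at day 13 with no overlap. Of 557 footprint rises with an RNA value, 25.3% were higher and 58.7% lower in RNA, and of 571 footprint falls, 46.4% were higher and 37.1% lower. Named genes are given for their values only. The RNA of Col1a1 had 6.801 and 1.93 CPM at day 13, against 9.81, 11.3 and 6.997 CPM at day 9. That of Hspa1a had 2.28 and 1.31 CPM at day 13, against 3.57, 2.93 and 2.74 CPM at day 9. In RNA both genes were lower at day 13 with no overlap, the reverse of their footprints. The other fibrillar collagens were not reversed: Col3a1 RNA had 237 and 169 CPM at day 13, against 57.8, 61.95 and 46.9 CPM at day 9, higher at day 13 with no overlap, and Col1a2 RNA had 40.7 and 22.1 CPM at day 13, against 19.6, 22.5 and 17.6 CPM at day 9, values that overlap. For Per3 it had 6.28 and 13.3 CPM at day 13, against 36.4, 32.7 and 32.2 CPM at day 9, and for Cyp4a10 63.7 and 69.9 CPM at day 13, against 199, 227 and 219 CPM at day 9. These were lower at day 13 in RNA and footprints alike. Arntl in RNA had 21.97 and 3.19 CPM at day 13, against 1.68, 1.77 and 1.66 CPM at day 9, with day 13 replicate 1 the highest, as in footprints.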

How the data were processed

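Ribosome footprints and RNA were sequenced from livers of mice given control or Eif3m siRNA; the 5 control footprint libraries are described here, with the 5 Eif3m footprint libraries and the RNA of the control livers as comparisons. The authors deposited expected counts in 1 table of 38784 gene symbols; all values are multiples of 1 over 6 within 0.01, as when reads with several matches are divided. Per the submitters' processing notes, cutadapt, Bowtie and Bowtie2 were used; which versions, build and counting rule lie behind the table is not given in the sources used here. Per the labels, RNA was purified from ground liver with the Qiagen RNeasy kit and footprint libraries were made with ART-seq on both days.

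Counts were rounded to whole numbers. In R 4.3.3, edgeR 4.0.16 (filterByExpr, TMM scaling, robust quasi-likelihood fit) was applied to all 10 footprint libraries with 1 coefficient per group, which leaves 6 residual degrees of freedom. Contrasts were day 13 minus day 9 in control livers, the same in Eif3m livers, and the first minus the second. P-values were adjusted by Benjamini-Hochberg over all 12213 genes tested and called below 0.05; an SE is the absolute log2 change over the square root of F. CPM are counts over library size times TMM factor. Checks on simulated data were also run, with levels and spread taken from a fit of these data. Alternatives were DESeq2 1.42.0 and its size factors, library totals, other filters, a replicate block, the control libraries alone, each library left out, and thinned day 9 libraries.

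Groups were taken from the labels. Sample IDs name 1 liver each; as far as separate animals are not stated outright, p-values measure only the spread between these samples. Replicate numbers were not used as pairs. Counts in the shallower day 13 libraries limit precision for low genes. Depth is the total count of a library.

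The 54 gene lists hold 1429 members, of which 1414 are in the table and 1259 were tested. Genes were named by a rule: the 12 largest called rises and 12 largest falls with no overlap and a mean of at least 5 CPM, and for each list up to 4 called members with the smallest p, or the 2 most abundant members of a list with none. Other genes given with values were chosen as list members or after their values were seen. The members and lists were chosen with earlier results of these data known. List counts are descriptions, with no set test, to be read against the 5.47% of all genes tested that rose and the 4.88% that fell. Some list members are counted but not reported here by name. Promoter sequences are from RefSeq (GRCm38.p6), matched by symbol for 27025 symbols; the build behind the counts is unknown, and no coordinate was joined to them. A count of 2 in a group is given with an exact interval of the ratio that covers counting error only.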

Additional observations from a re-analysis of the deposited data

Results flagged for a closer look

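Among the named genes, 21 had a day change that differed between control and Eif3m siRNA livers by edgeR's test of the difference itself (adjusted p below 0.05), 16 of them higher and 5 lower in control. Each value is the log2 change of control livers minus that of Eif3m livers.

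Among matrix and stellate genes the difference was 3.44 for Col1a1, 2.28 for Col3a1, 1.96 for Col1a2, 1.97 for Col6a2 and 1.32 for Vim. The log2 change of Col1a1 was 3.08 in control and -0.36 in Eif3m livers. For Col6a2 it was 1.45 in control and -0.52 in Eif3m livers. For chaperones the difference was 2.38 for Hspa1l, 2.13 for Hspa1b, 2.09 for Hspa1a and 1.39 for Bag3, all of which were called higher at day 13 in both sets.

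The myeloid lysozymes differed by 2.27 (Lyz2) and 2.19 (Lyz1), and both were called higher at day 13 in control and lower at day 13 in Eif3m livers. The endothelial receptor Lyve1 differed by 1.98. Of secreted and metabolic genes, G6pc differed by 2.55, the plasma glutathione peroxidase Gpx3 by 2.92, Hp by 1.16 and the mTORC1 inhibitor Ddit4 by 2.37. Gpx3 had 6.96 and 7.46 CPM at day 13, against 1.65, 1.93 and 1.35 CPM at day 9 in control livers and 0.573 and 2.73 CPM at day 13, against 2.85, 5.81 and 2.77 CPM at day 9 in Eif3m livers.

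The differences below 0 were -1.54 for the splicing factor Srsf5, -2.04 for the AP-1 subunit Junb, -1.79 for the kinase Plk2, -1.27 for complement C6 and -0.99 for the transaminase Gpt2. Plk2 had 5.802 and 4.26 CPM at day 13, against 12.2, 14.3 and 9.72 CPM at day 9 in control livers and 23.5 and 29.5 CPM at day 13, against 17.9, 19.9 and 19.2 CPM at day 9 in Eif3m livers. Junb had 27.5 and 44.01 CPM at day 13, against 39.1, 20.05 and 32.8 CPM at day 9 in Eif3m livers, where its log2 change was 0.30.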

How the results depend on the processing

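No named gene that was called changed sign under the 18 alternatives tried for the control day change. The major urinary list turned from 0 rises and 3 falls (median -0.41) to 1 rise and 0 falls (median 0.17) without day 13 replicate 2. The count of 1264 called genes was 1257 with DESeq2 size factors, 1339 with library totals, 1536 with no filter beyond 1 count, 1231 at a mean of at least 5 CPM, 1025 by DESeq2, 1488 with the 5 control libraries alone and 1030 with thinned day 9 libraries. The share of rises among calls was 52.8%, but 38.9% under library totals (521 of 1339) and 42.5% with no filter (653 higher, 883 lower). Leaving out 1 library at a time gave 322 to 1654 genes for the control day change, 343 to 2951 for that of Eif3m livers and 7 to 172 for the difference. The lowest control count came without day 13 replicate 2, with 303 genes shared with the 1264; without day 13 replicate 1 it was 494, with 451 shared. The difference called 242 genes with no filter beyond 1 count and 126 by DESeq2, against 100. With 1 day 13 library left, that library is assumed to vary like the others. Of 159 named genes called, 52 were called under every alternative, 34 higher and 18 lower, among them Col1a1, Col1a2, Col3a1, Col6a2, Hspa1a, Hspa1b, Hspa8, Bag3, Lyz2, G6pc, Trf, Ahsg, Glud1, Per3, Nr1d2, Ppara, Cyp4a10, Sult1b1, Klhl24 and Srsf5, and 51 were lost only when a day 13 control library was left out; the cause was not tested.

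The control groups share replicate numbers 1 and 2, but same-numbered livers did not deviate together (r = 0.112 and -0.110 across 8606 genes). A fit with a replicate block called 992 genes in control livers, 1736 in Eif3m livers and 75 for the difference.

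Sample ID prefix and day cannot be told apart. At the depth of the day 13 libraries, a gene near 1 CPM rests on only a few counts, so its day change is uncertain.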
